A study of Mus musculus with 4 samples.

Results

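Mouse chromosome 11 carried 1908 of the 31315 regions that were called more strongly marked in embryonic stem (ES) cells of 1 mouse strain than of the other. They are every chromosome 11 entry of 4 deposited lists, and this chromosome was picked with earlier results of these data known, for where its B6-enriched H3K27ac regions are dense. They comprised 449 H3K27ac regions enriched in B6, 361 H3K27ac regions enriched in NOD, 415 H3K4me3 regions enriched in B6 and 683 H3K4me3 regions enriched in NOD. B6 stands for C57BL/6, a strain that does not develop diabetes, and NOD for the non-obese diabetic strain, which is prone to autoimmune diabetes. ES cells of both strains were derived from blastocysts and grown in 2i, a medium with inhibitors of MEK and GSK3, and each strain and mark was profiled in 1 chromatin immunoprecipitation (ChIP-Seq) library. The labels do not give the age, the ES line or the number of lines behind a library. There were thus 4 libraries without replicates, and no difference between the strains was tested. Intervals printed here are 95% intervals that cover counting error only. The library of the other strain served as the background for each list, so a place marked alike in both strains is not listed, and membership already states a difference between 2 libraries. The H3K4me3 libraries held 14791364 tags (mapped reads) in B6 and 22750449 in NOD, whereas no depth is known for H3K27ac. Tags carried no molecular identifiers, so they are not independent molecules. No expression was used here, so the ES cell label was not checked by marker genes.

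H3K4me3 is trimethylation of lysine 4 of histone H3 and lies at the promoters of active and poised genes. H3K27ac is acetylation of lysine 27 of the same histone and marks active enhancers as well as active promoters. Long clusters of strongly acetylated enhancers are called super enhancers. Chromosome 11 of the mouse is rich in genes and holds, among others, the Hoxb homeobox cluster, the type I keratin cluster, a cluster of CC chemokines and several signalling genes that ES cells respond to.

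The DNA under the strongest regions is shown to let its composition be compared, and capitals mark CpG dinucleotides, the sequence context that most promoters are rich in. All positions are on the plus strand of mm10 (GRCm38.p6), which is the B6 reference, and no NOD sequence was read. The first pair is the highest-scoring H3K27ac region of each strain, chr11:88967986-88968285 for B6 and chr11:54140505-54140796 for NOD.
B6 H3K27ac upstream of Elobl: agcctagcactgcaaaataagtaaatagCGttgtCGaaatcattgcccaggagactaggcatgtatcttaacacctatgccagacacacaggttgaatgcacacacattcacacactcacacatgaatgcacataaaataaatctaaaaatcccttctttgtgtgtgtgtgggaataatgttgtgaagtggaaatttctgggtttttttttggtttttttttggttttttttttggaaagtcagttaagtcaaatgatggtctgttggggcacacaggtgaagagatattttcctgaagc
NOD H3K27ac downstream of P4ha2: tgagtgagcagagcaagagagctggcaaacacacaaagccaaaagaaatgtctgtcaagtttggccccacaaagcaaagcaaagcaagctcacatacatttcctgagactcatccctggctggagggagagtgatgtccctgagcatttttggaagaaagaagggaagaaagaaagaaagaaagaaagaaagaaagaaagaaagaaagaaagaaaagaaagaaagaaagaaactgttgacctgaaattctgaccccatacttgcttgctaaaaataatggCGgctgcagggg
The next group holds the centres of H3K4me3 regions, namely the B6 region with the most tags and none in NOD (chr11:5698773-5699072), a B6 region with 1 NOD tag inside a B6 H3K27ac domain (chr11:57558682-57558981), a B6 region in a long stretch without NOD H3K27ac regions (chr11:113172719-113173018, over an exon of the non-coding LOC115487747) and the NOD region with the most tags (chr11:98068231-98068530).
B6 H3K4me3 near Mrps24: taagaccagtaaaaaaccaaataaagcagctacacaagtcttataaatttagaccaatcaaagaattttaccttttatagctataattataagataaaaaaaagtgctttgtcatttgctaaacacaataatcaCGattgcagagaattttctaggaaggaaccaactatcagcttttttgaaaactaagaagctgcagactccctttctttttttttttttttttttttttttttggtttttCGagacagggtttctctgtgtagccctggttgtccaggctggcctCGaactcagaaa
B6 H3K4me3 near Mfap3: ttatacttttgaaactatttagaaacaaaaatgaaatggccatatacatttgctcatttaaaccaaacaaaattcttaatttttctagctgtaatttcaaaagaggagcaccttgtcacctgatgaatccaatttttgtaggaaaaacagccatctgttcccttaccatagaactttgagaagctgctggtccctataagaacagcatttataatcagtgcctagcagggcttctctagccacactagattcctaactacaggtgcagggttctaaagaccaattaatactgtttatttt
B6 H3K4me3 in 2610035D17Rik: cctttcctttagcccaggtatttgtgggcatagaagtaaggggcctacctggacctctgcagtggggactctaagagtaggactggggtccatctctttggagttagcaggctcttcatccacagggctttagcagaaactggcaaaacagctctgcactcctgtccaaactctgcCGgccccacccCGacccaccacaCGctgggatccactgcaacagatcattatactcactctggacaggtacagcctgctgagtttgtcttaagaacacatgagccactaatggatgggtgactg
NOD H3K4me3 upstream of Stac2: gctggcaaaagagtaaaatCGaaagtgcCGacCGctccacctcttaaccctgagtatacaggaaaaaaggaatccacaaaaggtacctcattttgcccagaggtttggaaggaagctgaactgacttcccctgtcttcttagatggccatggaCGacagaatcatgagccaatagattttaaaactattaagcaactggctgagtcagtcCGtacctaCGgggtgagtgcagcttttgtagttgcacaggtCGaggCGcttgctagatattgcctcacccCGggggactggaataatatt
The NOD region near Stac2 held 9 CpGs, and the others between 0 and 3. Soft-masked as repeats in the reference were 86% of the bases shown near Mrps24, 88.7% near Mfap3, 67.3% upstream of Elobl and 43.8% downstream of P4ha2. It was 8.33% near Stac2 and 2.33% in 2610035D17Rik. These sequences do not stand for the lists. In the central 500 bp, the median masked share was 17.4% for B6 and 24.2% for NOD H3K27ac regions of chromosome 11. For H3K4me3 regions it was 13.2% and 13.6%, and over every 10th window of the chromosome 21.6%.

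The first question was how densely chromosome 11 was covered compared with the other autosomes. The rule for the comparison set aside chromosomes 6 and 8, which left 16 for comparison. The density of B6-enriched H3K27ac regions, for which the chromosome was picked, is given as a description. They occurred at 3.68 per Mb (3.35 to 4.03), where the other 16 had a median of 2.10 and a maximum of 2.64 per Mb on chromosome 17, a ratio of 1.75 to the median. The other lists were also densest on chromosome 11, with smaller ratios to their medians. NOD-enriched H3K27ac regions reached 2.96 per Mb against a median of 2.32, B6-enriched H3K4me3 regions 3.40 against 2.58 and NOD-enriched H3K4me3 regions 5.59 against 4.35, with ratios of 1.27, 1.32 and 1.29.

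Gene density moved with these values. Chromosome 11 had 13.1 protein-coding genes per Mb, the second-highest density among the 17 chromosomes, where the median of the others was 7.55 and the maximum 13.9 on chromosome 7. Its GC content of 43.8% was the highest of the 17. Counted per 100 protein-coding genes, B6-enriched H3K27ac regions numbered 28.0 on chromosome 11 and 26.2 on the median chromosome, which put chromosome 11 at rank 8 of 17. The other 3 lists then lay below the median, with 22.5 NOD H3K27ac, 25.9 B6 H3K4me3 and 42.6 NOD H3K4me3 regions per 100 genes, at ranks 16, 15 and 15. The gene-rich chromosomes differed among themselves. Chromosome 7 held 2.34 B6 H3K27ac regions per Mb and 16.8 per 100 genes, and chromosome 17 held 2.64 and 24.0. The part of gene density in the excess per Mb was not tested.

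**Figure D1:**
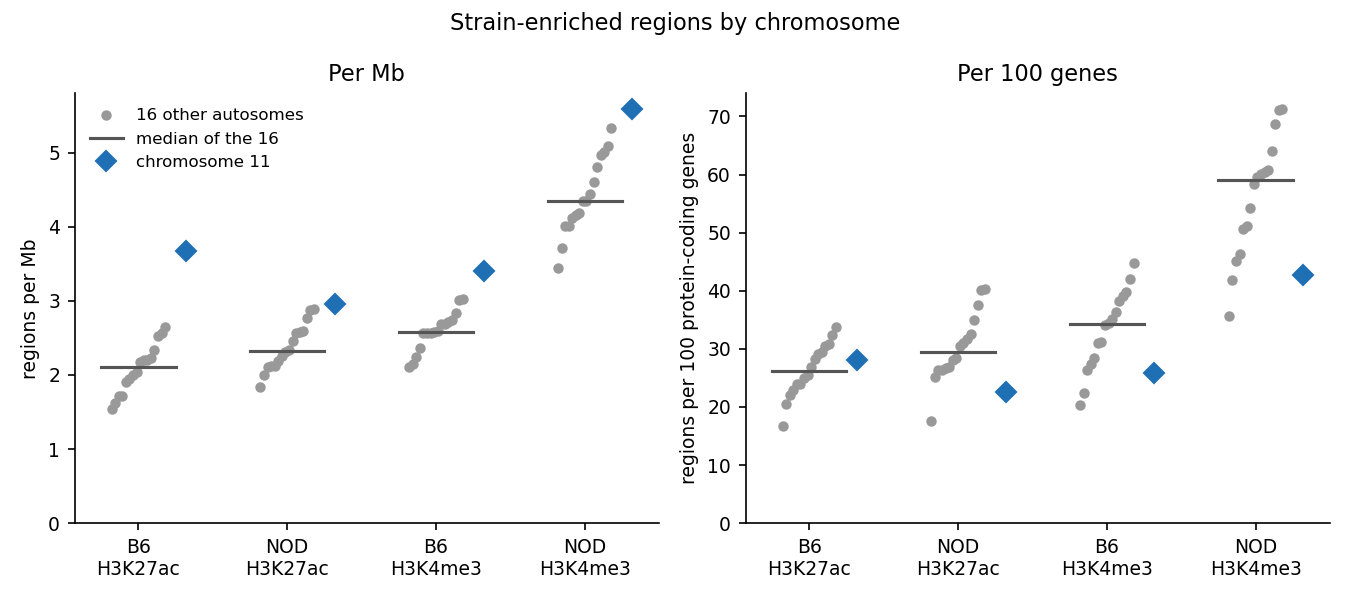
Strain-enriched regions per Mb (left) and per 100 protein-coding genes (right) for the 4 lists, with 1 grey point for each of the 16 other autosomes, a line at their median and a blue diamond for chromosome 11. Per Mb the diamond lies above all grey points in each list, including B6 H3K27ac at 3.68, the value for which the chromosome was picked, whereas per 100 genes it lies near the median for B6 H3K27ac and below it for the other lists.

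The share of regions that belonged to NOD separated the marks. The low H3K27ac share was among the results known when the chromosome was picked, so it too is a description. For H3K27ac, 361 of 810 regions were NOD-enriched, 44.6% (41.2 to 48.0), the lowest share of the 17 chromosomes; it was 53.4% (52.3 to 54.4) over the other 16, which ranged from 49.3% on chromosome 15 to 56.8% on chromosome 18. For H3K4me3, the NOD share of 62.2% (59.3 to 65.0) lay within the range of 59.0% to 65.9% of the other chromosomes and close to their joint 62.9%. The median score, the deposited measure of own-strain minus other-strain signal, was 13.0 in B6 and 13.3 in NOD, and the NOD share was 42.5% among regions with a score of at least 10, again the lowest of the 17. A deposited slope value of at least 1 was used here as a cut for super enhancers, without regard to length. The highest-scoring NOD region, only 0.291 kb wide, passed it. NOD had 31 and B6 had 29 regions with such a slope, a NOD share of 51.7% (39.3 to 63.8). The lowest of the other chromosomes was then chromosome 19 at 44.0%. Regions with such a slope were 6.46% (4.53 to 9.12) of the B6 and 8.59% (6.12 to 11.9) of the NOD regions of chromosome 11, beside 7.06% and 8.16% over all regions of the lists. By summed score the NOD share was 50.2%, still the lowest of the 17 chromosomes, where the median of the others was 62.2%. By covered bases it was 45.5%, and chromosome 11 was then the 3rd lowest, with chromosome 17 the lowest at 40.2%.

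Along the chromosome, B6 H3K27ac regions were concentrated towards the distal end. In bins of 10 Mb, a bin was called dense when its B6 H3K27ac regions exceeded 3.6 per Mb, the 90th percentile of the 205 bins of the other 16 autosomes. Of the 12 bins of chromosome 11, 7 were dense, beside 9.76% of the other bins; since density defined them, this is a description. The densest was the distal bin from 110 Mb to the chromosome end, with 70 B6 regions or 5.79 per Mb, followed by 70 to 80 Mb with 5.4, 90 to 100 Mb with 4.8 and 100 to 110 Mb with 4.6 per Mb. Just inside the threshold lay 60 to 70 Mb with 3.7 and 50 to 60 Mb with 3.8 per Mb, and just outside it 80 to 90 Mb with 3.2. In the proximal 50 Mb, the sole dense bin was 20 to 30 Mb with 4.0 per Mb, while the bins beside it held 1.9 and 1.6. With bins of 5 Mb, 8 of 24 (33.3%, against 58.3% of the 10 Mb bins) were dense and covered 42.1 Mb instead of 72.1 Mb, and the 95th percentile or a minimum score of 10 left 4 bins, the same 4 that lead the list above. With bins shifted by 5 Mb, 7 of 13 were dense and none of them lay before 55 Mb.

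Within 2 Mb windows the peak was narrower still. From 116 to 118 Mb there were 25 B6 and 11 NOD H3K27ac regions, and no other window of the chromosome held more than 16 B6 regions. The distal bin held B6 regions of usual median score but none of the highest. Their median score was 12.55, within the 11.5 to 16.45 of the other bins. Their summed score of 1431, not scaled to length, came from a bin of 12.1 Mb. The bins of 10 Mb at 90 to 100 Mb and 50 to 60 Mb reached 1483 and 1430. None of the 70 had a slope value of at least 1, beside 6.46% on the chromosome, and the top score was 73.8, near Trim47, a tripartite motif gene. In contrast, the 38 NOD regions of this bin included 4 with such a slope, with a top score of 300.7 in Rnf213. In the bin from 90 to 100 Mb, 5 of 48 B6 regions and 1 of 31 NOD regions reached it.

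**Figure D2:**
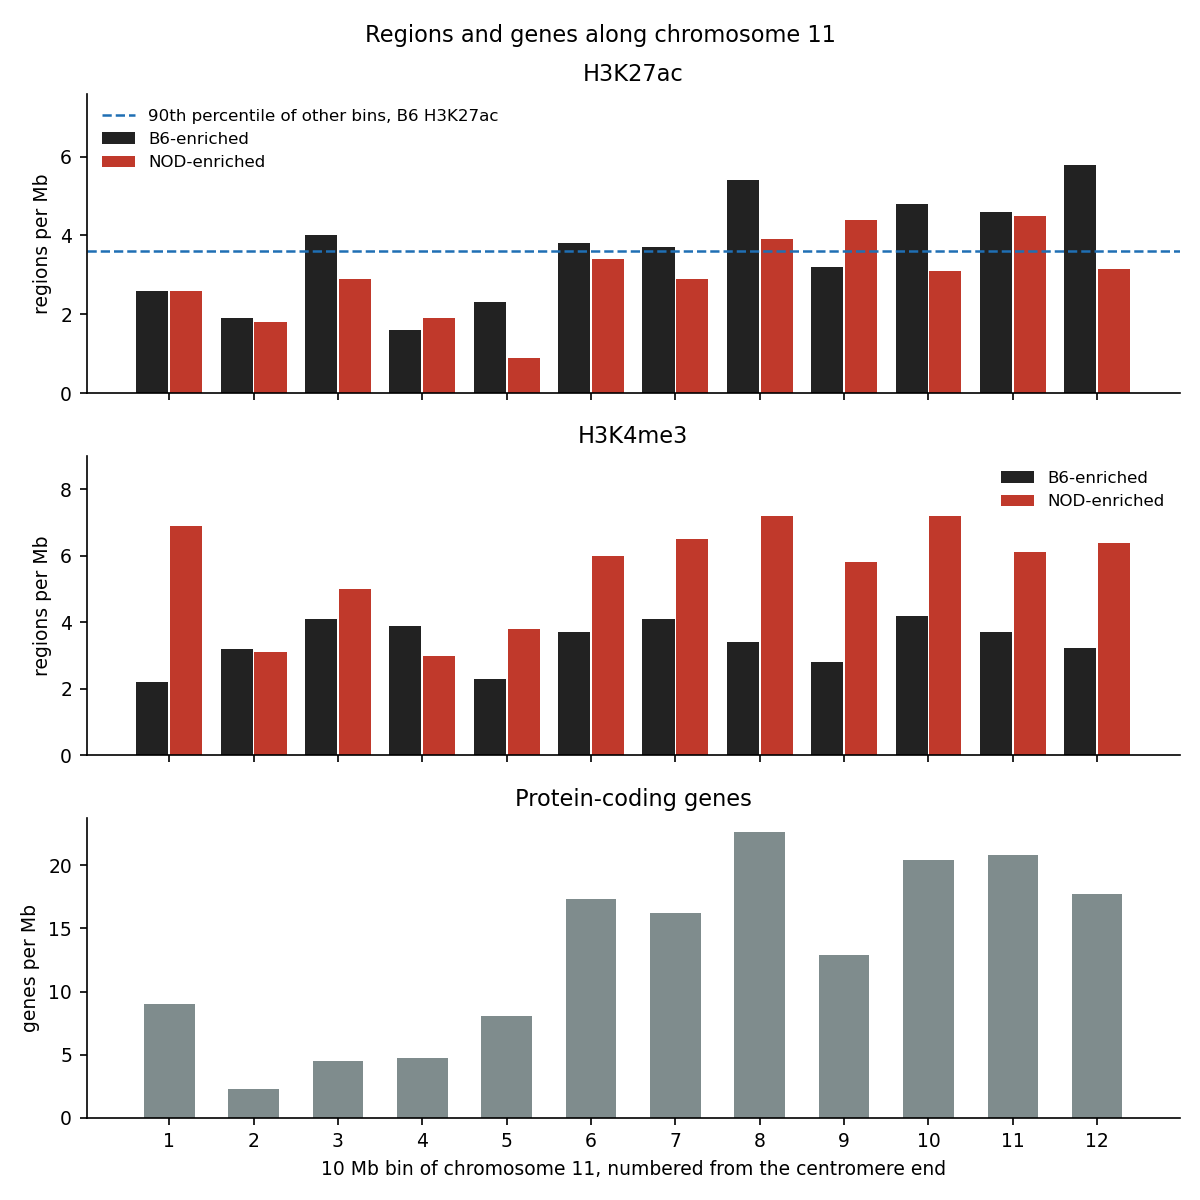
Regions per Mb enriched in B6 (black) and NOD (red) for H3K27ac (top) and H3K4me3 (middle), and protein-coding genes per Mb (bottom), in the 12 bins of chromosome 11, where bin 1 spans 0 to 10 Mb and bin 12 spans 110 Mb to the end. The dashed line is the density threshold of 3.6 B6 H3K27ac regions per Mb, which bins 3, 6, 7, 8, 10, 11 and 12 exceed.

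H3K4me3 did not follow the same profile in B6. The B6 H3K4me3 regions varied between 2.2 per Mb at 0 to 10 Mb and 4.2 per Mb at 90 to 100 Mb, and the proximal bin at 30 to 40 Mb, with 1.6 B6 H3K27ac regions per Mb, held 3.9 B6 H3K4me3 regions per Mb. The distal bin, with the most B6 H3K27ac regions, held 3.23. Over the 12 bins, the rank correlation between the 2 B6 lists was 0.34, compared with 0.67 over the 205 other bins, and that between the B6 and NOD H3K4me3 lists was 0.15 compared with 0.60. NOD H3K4me3 regions followed B6 H3K27ac regions more closely, at 0.70 and 0.77. Bins share libraries, depth and gene content, so these values are descriptions without a test.

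Genes tracked B6 H3K27ac density in most bins. The rank correlation with protein-coding genes per Mb was 0.79 for B6 H3K27ac, 0.77 for NOD H3K27ac, 0.78 for NOD H3K4me3 and 0.20 for B6 H3K4me3, while the other 16 autosomes gave 0.74, 0.62, 0.75 and 0.64. In the dense bins from 50 Mb on, there were between 22.0 and 32.7 B6 H3K27ac regions per 100 genes, near the median of 28.6 over the other bins with at least 10 genes. The bin at 20 to 30 Mb was different. It had 45 genes, or 4.5 per Mb, and 88.9 B6 H3K27ac regions per 100 genes, more than in 99.0% of the other bins. Its gene-poor neighbour at 10 to 20 Mb, with 23 genes and 82.6 regions per 100 genes, lay at the same percentile without being dense per Mb.

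**Figure D3:**
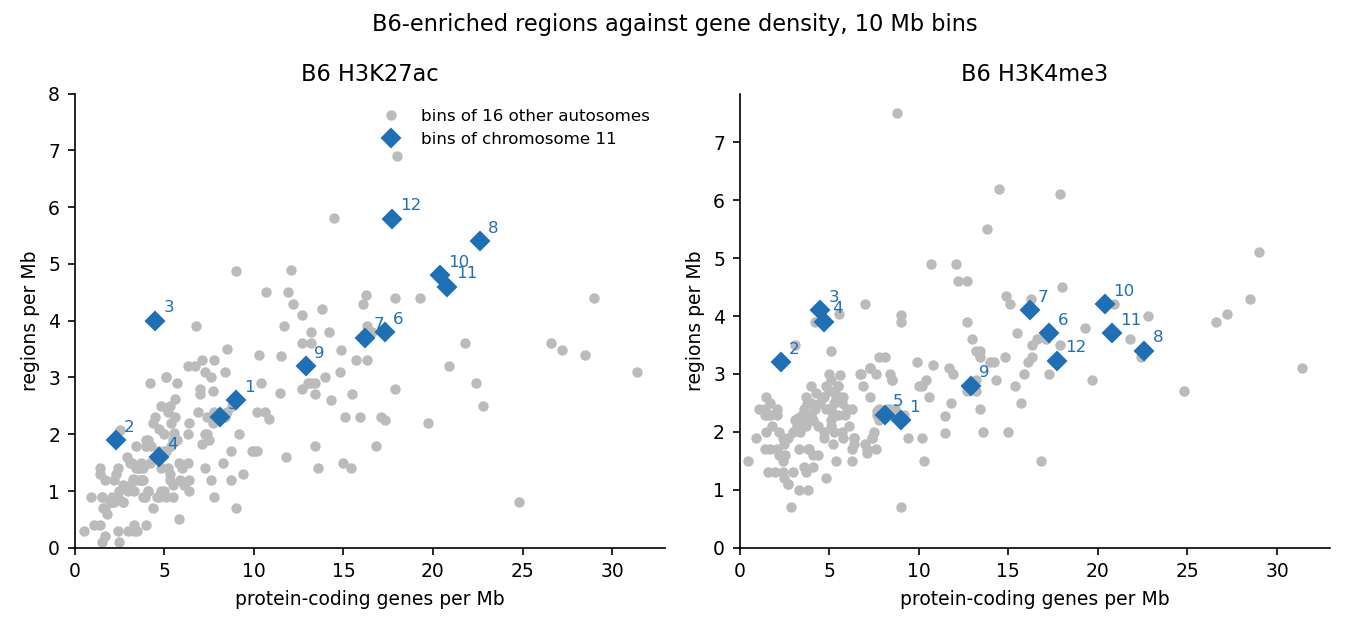
B6-enriched H3K27ac (left) and H3K4me3 (right) regions per Mb against protein-coding genes per Mb in 10 Mb bins, with grey points for the 205 bins of the 16 other autosomes and numbered blue diamonds for the 12 bins of chromosome 11. Bin 3 has 4.0 B6 H3K27ac regions per Mb at 4.5 genes per Mb, and bins 2, 3 and 4 have 3.2 to 4.1 B6 H3K4me3 regions per Mb at under 5 genes per Mb.

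When both strains were set side by side, the dense bins leaned to B6 for H3K27ac and not for H3K4me3. The 7 dense bins together held 333 B6 and 245 NOD H3K27ac regions, a NOD share of 42.4% (38.4 to 46.5), and the other 5 bins held 116 of each. For H3K4me3 the NOD share was 62.8% (59.2 to 66.2) in the dense bins and 61.1% (56.0 to 65.9) in the others. As the bins were selected on B6 H3K27ac, a lower NOD share for that mark follows in part from the selection, whereas H3K4me3 did not enter it. Single bins departed from this. The lowest H3K27ac share was at 40 to 50 Mb, which was not dense, with 23 B6 and 9 NOD regions (28.1%, 15.6 to 45.4). In the distal bin, 70 B6 and 38 NOD regions gave 35.2% (26.8 to 44.6), and at 80 to 90 Mb, 32 and 44 regions gave 57.9% (46.7 to 68.4). For H3K4me3, the first bin had the highest NOD share, with 69 NOD and 22 B6 regions (75.8%, 66.1 to 83.5), and the bin at 30 to 40 Mb the lowest, with 30 and 39 (43.5%, 32.4 to 55.2). These bins were named for their high or low shares after the values were seen, so their intervals do not test a difference between bins.

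**Figure D4:**
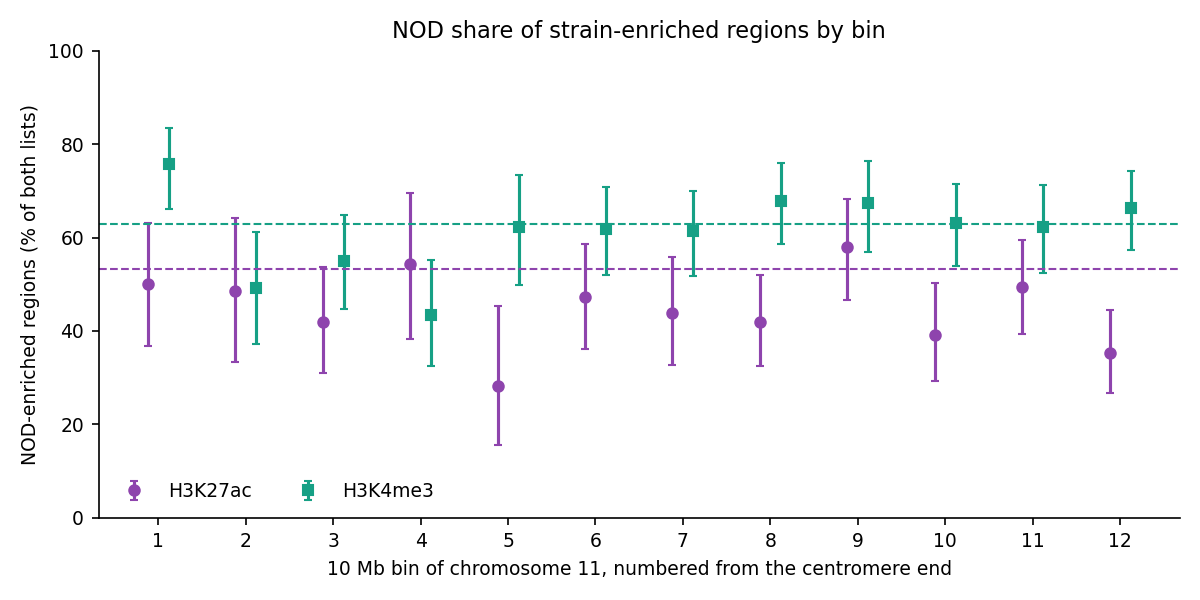
NOD-enriched regions as a percentage of both strains' regions in each 10 Mb bin of chromosome 11, for H3K27ac (purple circles) and H3K4me3 (green squares), with 95% Wilson intervals and dashed lines at the joint share of the 16 other autosomes, 53.4% and 62.9%. H3K27ac lies lowest in bins 5 and 12, at 28.1% and 35.2%, and H3K4me3 lowest in bin 4 and highest in bin 1.

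The regions themselves differed in position and sequence between the strains. Distances of H3K27ac regions to a transcription start site (TSS) were taken as deposited. A TSS lay within 1 kb of 57 of 449 B6 H3K27ac regions (12.7%, 9.93 to 16.1) and of 77 of 361 NOD H3K27ac regions (21.3%, 17.4 to 25.8). With a window of 5 kb the shares were 21.6% and 34.6%. The order was the same within 1 kb on the other 16 autosomes, at 9.86% and 16.2%. In the dense bins the share was 14.4% (11.05 to 18.6) for B6, and elsewhere on chromosome 11 it was 7.76% (4.14 to 14.1). By RefSeq distance instead, 16.9% of B6 and 25.2% of NOD H3K27ac regions lay within 1 kb of a TSS. For H3K4me3, 22.9% of B6 and 20.2% of NOD regions lay within 1 kb of a RefSeq TSS, compared with 16.4% and 15.8% on the other autosomes. The order reversed with a window of 5 kb, at 37.8% (33.3 to 42.6) of B6 and 47.4% (43.7 to 51.2) of NOD regions. On the other autosomes these shares were 32.1% and 38.1%. The centre of 135 B6 and of 135 NOD H3K27ac regions was annotated to a repeat, which is 30.1% (26.0 to 34.5) and 37.4% (32.6 to 42.5). Within repeats, ERVK elements, a family of endogenous retroviruses, took 41 B6 regions (9.13%, 6.80 to 12.2) and 27 NOD regions (7.48%, 5.19 to 10.7), while on the other autosomes NOD had the larger share, 11.6% against 7.64%. SINE elements of the Alu class were found at 28 NOD regions (7.76%, 5.42 to 10.98) and 12 B6 regions (2.67%, 1.54 to 4.61), against 4.50% and 3.40% elsewhere.

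Among B6 H3K27ac regions, the highest score of the whole B6 list, 658.6, lay on chromosome 11 (chr11:88967787-88968484), 1.204 kb upstream of Elobl, a gene related to the transcription elongation factor subunit elongin B. It lies in the bin that was just below the density threshold. The next, with a score of 431.9 and rank 4 of 5525, spanned 17.5 kb (chr11:57543415-57560872) between protein-coding genes, 33.3 kb from the TSS of Mfap3, a microfibril-associated protein. Rank 26 was a domain of 22.7 kb inside Rara (chr11:98941891-98964613, score 285.5), which encodes the retinoic acid receptor alpha, a nuclear receptor that drives ES cell differentiation on retinoic acid. All of the Rara regions were enriched in B6. Besides this domain, there was an H3K27ac region 1.75 kb upstream of a Rara TSS (score 37.9), an H3K4me3 region 0.494 kb past a TSS with 101 B6 and 21 NOD tags (chr11:98927679-98928910), and another within the domain with 78 and 22 tags (chr11:98961011-98961951). The tag folds at Rara, scaled for library size, were 7.40 (4.59 to 12.5) and 5.45 (3.36 to 9.20).

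The remaining B6 regions of the top 10 were spread over the chromosome. An intron of Aspa, the enzyme that splits N-acetylaspartate, held a region over an ERVK element of the type RLTR13C1 (score 214, chr11:73318144-73319671). A domain of 12.03 kb lay 44.4 kb upstream of Rtn4, the myelin inhibitor Nogo (score 185.9). Scores of 157.7 and 156.1 were found at the last exons of Top3a, a topoisomerase, and of Gabrp, the pi subunit of the GABA-A receptor. Scores of 152.7 and 149 belonged to neighbouring domains of 14.3 and 12.1 kb, in Anxa6, a calcium-dependent phospholipid-binding protein, and 15.2 kb upstream of the TSS of Tnip1, an inhibitor of NF-kB signalling. The last of these, near B3gnt2, a glycosyltransferase (chr11:22821997-22831348, score 140.9), was the only 1 of these 10 that contained an H3K4me3 region of the other strain, with 87 NOD tags and 1 B6 tag. The highest B6 region was Rtn4 in the bin at 20 to 30 Mb, Mfap3 at 50 to 60 Mb, Top3a at 60 to 70 Mb, Aspa at 70 to 80 Mb, Rara at 90 to 100 Mb, Arf2, a small GTPase of vesicle traffic, at 100 to 110 Mb with 87.3, and Trim47 in the distal bin.

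For NOD, the top H3K27ac region was only 0.291 kb wide, with a score of 580.9 and rank 16 of 6126 (chr11:54140505-54140796). It lay between genes, 39.7 kb past the TSS of P4ha2, a subunit of the enzyme that hydroxylates collagen prolines, and its sequence above includes a long GAAA repeat. The next were an intron of Vps53, a component of the complex that returns vesicles to the Golgi (score 396.3, chr11:76150989-76160605), a region 23.3 kb upstream of 4930505A04Rik (323), and a domain of 20.9 kb in Rnf213, a large ubiquitin ligase (300.7, chr11:119381865-119402742). The Rnf213 domain held an H3K4me3 region with 153 NOD tags and 15 B6 tags. A domain of 17.6 kb far from genes (chr11:41218379-41235945, score 292.2) contained 3 NOD H3K4me3 regions with 153, 35 and 31 NOD tags and 2, 2 and 1 B6 tags. Its nearest protein-coding TSS, that of the cyclin gene Ccng1, was 472 kb away. The region with a score of 201.2 lay over an ERVK element of the type RLTR25B, 97.7 kb from Hspa4.

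H3K4me3 could be read in tags of both libraries. In B6, the region with the most tags was the one at Elobl (chr11:88967542-88970536), with 351 B6 tags and 78 NOD tags, a scaled fold of 6.92 (5.40 to 8.96). It covered the top H3K27ac region of the list. A region 8.78 kb past the TSS of Mrps24, a mitochondrial ribosomal protein (chr11:5697676-5700169), held 243 B6 tags and none in NOD. By the exact lower limit at 0 tags this was at least 100.55-fold higher, and with NOD set to a floor of 3 tags the fold was 125. In an intron of Rgs9, a regulator of G-protein signalling (chr11:109288103-109290100), there were 195 and 36 tags, a fold of 8.33 (5.82 to 12.2). Inside the Mfap3 domain (chr11:57557689-57559974), 173 B6 tags faced 1 NOD tag, a fold of 266 (47.1 to 10570). Each of these was wider than the 500 bp of a single call.

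The other B6 regions with many tags fell into a group that was empty in NOD and a group that was not. At a coding exon of Stk10, a kinase of lymphocytes (chr11:32614002-32615169), 130 B6 tags and no NOD tag were counted (at least 53.4-fold higher by the exact lower limit, 66.7 against the floor). In the non-coding 2610035D17Rik (chr11:113172556-113173181), 103 B6 tags and no NOD tag were counted (at least 42.18-fold higher by the exact lower limit, 52.8 against the floor). Folds against the floor cannot be ranked with folds against counted tags, as in the Mfap3 domain. Proca1 had 110 and 28 tags and Mpp2, a scaffold protein of the membrane, 107 and 37, both within 1 kb past the TSS, with folds of 6.04 (3.96 to 9.51) and 4.45 (3.03 to 6.65). Where NOD had no tag, loss of the mark and loss or change of the DNA itself cannot be told apart, since NOD reads were placed on the B6 reference.

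In NOD, the leading H3K4me3 region had more tags than any other on the chromosome. It lay 14.9 kb upstream of Stac2, an SH3 domain protein of muscle and nerve (chr11:98066605-98070155), with 1561 tags in NOD and 117 in B6 (fold 8.67, 7.19 to 10.6), and was contained in a NOD H3K27ac domain with a score of 174.7. The next was 42.2 kb upstream of Slit3, an axon guidance ligand (chr11:35078336-35080208), with 799 and 55 tags (fold 9.45, 7.18 to 12.7). Centred 2.88 kb past the TSS of Epop, a partner of the Polycomb complex and of elongin (chr11:97625602-97628072), there were 782 and 124 tags (fold 4.10, 3.39 to 4.996). At Osm, which encodes the LIF-related cytokine oncostatin M (chr11:4236107-4238323), 330 NOD and 42 B6 tags were counted 0.430 kb past the TSS (fold 5.11, 3.70 to 7.22). The Wnt antagonist Rnf43 had 415 and 37 tags in its leading region and 29 and 21 NOD tags, with none in B6, in further regions of its introns. Arhgap44 had 367 and 31 tags, Nxn, a redox regulator of Wnt signalling, 356 and 34, and an intergenic region 28.8 kb past the TSS of the T cell factor Tbx21 305 and 13. Each of the 8 NOD regions kept between 13 and 124 B6 tags, and 3 of the 8 B6 regions had none in NOD. In the whole lists, 37.7% of B6 and 34.9% of NOD regions had no tag of the other strain. The 8 NOD regions held 305 to 1561 own-strain tags and the 8 B6 regions 103 to 351, so the 2 sets are not matched in level.

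**Figure D5:**
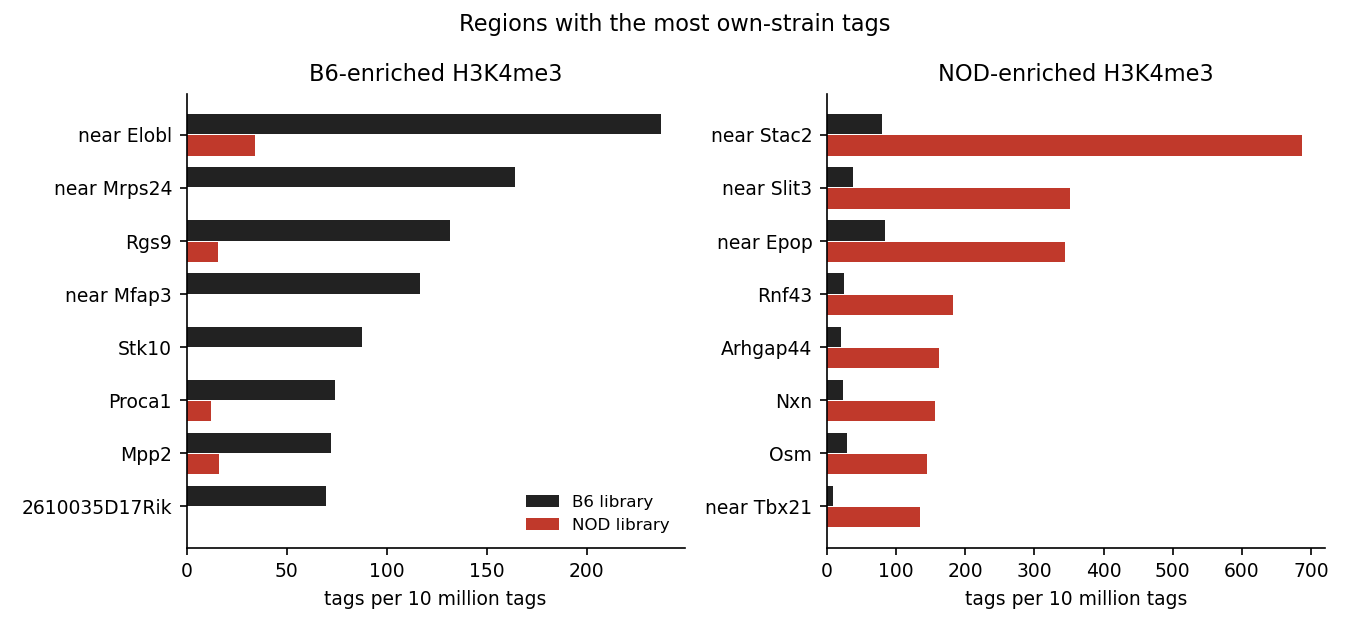
H3K4me3 tags per 10000000 tags of each library in the 8 B6-enriched (left) and the 8 NOD-enriched (right) regions of chromosome 11 with the most own-strain tags, black for the B6 and red for the NOD library, labelled by the gene they lie in or the nearest protein-coding TSS. The regions near Mrps24, in Stk10 and in 2610035D17Rik have no NOD tag, while every NOD-enriched region shown has B6 tags.

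Over all members, a median B6 H3K4me3 region held 21 B6 and 3 NOD tags, and a median NOD region 31 NOD and 2 B6 tags. No NOD tag was found in 145 of 415 B6 regions (34.9%, 30.5 to 39.6), beside 37.7% in the whole B6 list, and no B6 tag in 199 of 683 NOD regions (29.1%, 25.9 to 32.7), beside 34.9% in the whole NOD list. A fold of at least 8, or no tag in the other strain, was reached by 254 B6 regions (61.2%) and 351 NOD regions (51.4%), beside 64.8% and 59.0% in the whole lists. These values come from the contrast that selected the regions. They varied along the chromosome, which was noticed after the values were seen. In the bin at 30 to 40 Mb, 27 of 39 B6 regions had no NOD tag (69.2%, 53.6 to 81.4), compared with 7 of 39 in the distal bin (17.9%, 8.98 to 32.7). In the NOD list the same bins had 14 of 30 (46.7%) and 16 of 77 (20.8%) without a B6 tag. Regions without tags of the other strain were poorer in CpG. Their median observed over expected CpG ratio in the central 500 bp was 0.184 in B6 and 0.201 in NOD, and it was 0.323 and 0.303 in regions with tags of both strains, compared with 0.166 over every 10th window of the chromosome. Their GC content was 44.6% in B6 and 45.6% in NOD, against 50.4% and 49.8%.

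Whether both marks were raised together was examined by overlap. Of the 415 B6 H3K4me3 regions, 18 lay over a B6 H3K27ac region (4.34%, 2.76 to 6.75), and none over a NOD one, which allows a share of up to 0.917%. Of the 683 NOD H3K4me3 regions, 32 lay over a NOD H3K27ac region (4.69%, 3.34 to 6.54) and 8 over a B6 one (1.17%, 0.595 to 2.29). The corresponding same-strain shares on the other autosomes were 3.89% and 6.24%. Seen from H3K27ac, 18 of 449 B6 regions (4.01%) and 30 of 361 NOD regions (8.31%) lay over an H3K4me3 region of their own strain. No NOD H3K27ac region of chromosome 11 lay over a B6 H3K4me3 region, which allows up to 1.05%, and on the other autosomes 30 of 4849 did (0.619%). Among regions with a slope value of at least 1, 6 of 29 in B6 and 10 of 31 in NOD lay over H3K4me3 of their own strain. In the dense bins, 13 of 271 B6 H3K4me3 regions (4.797%, 2.82 to 8.03) overlapped a B6 H3K27ac region, and elsewhere 5 of 144 (3.47%, 1.49 to 7.87). For NOD it was 16 of 457 (3.50%, 2.17 to 5.61) in the dense bins and 16 of 226 (7.08%, 4.40 to 11.2) elsewhere. These shares depend on the rule for overlap: with at least 50% of the H3K4me3 region covered, the same-strain share on chromosome 11 was 2.65% for B6 and 2.20% for NOD, and within a distance of 1 kb it was 8.49% for NOD.

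Long stretches without an exchange of strain occurred in B6. Read in order along the chromosome, 14 B6 H3K27ac regions followed each other without a NOD one at chr11:110257463-113737468, an interval of 3.48 Mb with 12 protein-coding genes. The genes nearest to these regions include Map2k6, a kinase of the p38 pathway, Kcnj2, a potassium channel, and Slc39a11, a zinc transporter, and the interval also holds Sox9, which encodes a factor of cartilage and testis. The scores were modest, between 7.24 and 58.1, and there were also 8 B6 and 3 NOD H3K4me3 regions. At Sox9 itself the NOD library had more, with 63 NOD and 8 B6 H3K4me3 tags 0.374 kb past its TSS, a fold of 5.12 (2.45 to 12.4). A second stretch, chr11:12381223-16110446, held 8 B6 H3K27ac regions, 14 B6 and 4 NOD H3K4me3 regions and a single protein-coding gene. Another stretch, chr11:115944970-116429218, packed 10 B6 regions into 0.484 Mb with 19 genes, from Sap30bp to Ubald2. The longest NOD stretch had 6 regions. These stretches were picked after the values were seen. On the other 16 autosomes, the longest B6 stretch had between 7 and 15 regions and the longest NOD stretch between 8 and 23, so that only the NOD value of chromosome 11 lay outside the range, at its lower side.

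Gene groups of chromosome 11 were then compared with all its genes. A region in the gene body or within 5 kb of the TSS was found for 790 of 1602 protein-coding genes (49.3%). By list, it was 16.5% for B6 H3K27ac, 15.4% for NOD H3K27ac, 15.2% for B6 H3K4me3 and 24.8% for NOD H3K4me3. Long genes can hold more regions, and neighbouring genes can share 1. The groups were also chosen with earlier results of these data known, so the counts below are descriptions.

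Signalling by LIF and STAT, which keeps mouse ES cells undifferentiated, was covered at 6 of 7 genes (85.7%, beside 49.3% of all genes). NOD H3K27ac and NOD H3K4me3 each lay at 3 genes (42.9%, beside 15.4% and 24.8%). B6 H3K27ac and B6 H3K4me3 each lay at 1 gene (14.3%, beside 16.5% and 15.2%). Besides Osm, the ligand Lif had 15 NOD tags and 1 B6 tag over its TSS, a fold of 9.75 with a wide interval that reached up to 411. Socs3, the feedback inhibitor of the pathway, had a NOD H3K27ac domain over an ERV1 element centred 11.1 kb upstream (chr11:117975170-117987743, score 137.8, rank 322). The transducer Stat3 had a B6 H3K4me3 region in an intron with 13 and 3 tags (fold 6.67, 1.83 to 36.5), and Stat5b a weak NOD H3K27ac region (13.2). Grb2, the adaptor to the MAP kinase pathway, had both B6 and NOD H3K27ac regions, led by a NOD region of 74.3 centred 2.32 kb past the TSS and a B6 region of 41.0 inside the gene. In the Wnt group, 3 of 6 genes had a region (50%, near the 49.3% of all genes): Rnf43, Axin2 (NOD H3K27ac, 8.11) and the ligand Wnt3a (B6 H3K27ac, 35.0).

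Transcription factors were covered at 21 of 24 genes (87.5%, beside 49.3% of all genes). A NOD H3K4me3 region was found at 12 of them (50% of the group, beside 24.8%) and a B6 one at 8 (33.3%, beside 15.2%). B6 H3K27ac lay at 6 (25%, beside 16.5%) and NOD H3K27ac at 5 (20.8%, beside 15.4%). Tbx2, a T-box factor of limb and heart, had the most tags, 155 in NOD and 19 in B6 at its TSS (fold 5.30, 3.28 to 9.05), and 2 further NOD regions. The lymphoid factor Ikzf1 had 97 NOD and 13 B6 tags at a TSS (fold 4.85, 2.71 to 9.44), and its relative Ikzf3 had the reverse, 41 B6 and 3 NOD tags (fold 21.0, 6.71 to 106). The clock repressor Nr1d1 had 99 NOD and 13 B6 H3K4me3 tags, together with a B6 and a NOD H3K27ac region side by side (scores 12.2 and 30.7). Trp53, the tumour suppressor, also had H3K4me3 regions of both strains at different places.

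In the Hoxb cluster, which specifies position along the body axis and is silent in ES cells, no H3K27ac region of either strain was listed. Over all genes, B6 H3K27ac lay at 16.5% and NOD H3K27ac at 15.4%. An H3K4me3 region lay at 7 of 10 Hoxb genes (70%), beside 49.3% of all genes with a region of any list. NOD H3K4me3 lay at 50% of the Hoxb genes, beside 24.8% of all genes. Hoxb13 had 48 NOD and 3 B6 tags upstream and 47 and 1 tags past its TSS, and Hoxb9 had 79 and 12 tags at its TSS (fold 4.28, 2.32 to 8.63). A single region with 38 NOD and 6 B6 tags was shared by Hoxb3, Hoxb5 and Hoxb6, and 1 region with 20 B6 and 4 NOD tags by Hoxb7 and Hoxb8. Type I keratins, the structural proteins of epithelia and hair, had a region at 6 of 25 genes (24%, beside 49.3% of all genes). Of these, 5 had a B6 H3K4me3 region and 1 a NOD one, and Krt12, Krt17, Krt19, Krt28 and Krt42 had B6 regions with 22 to 30 B6 tags, Krt17 and Krt42 sharing 1. A B6 H3K27ac domain with a score of 66.2 lay across Krt17 and Krt42 (chr11:100255076-100263208). The B6 H3K4me3 share of 20% was close to the 15.2% over all genes and equal to that of the Hoxb genes, and the NOD H3K4me3 share was 4%, where all genes had 24.8%.

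The 4 imprinted genes, each of which is expressed from 1 parental allele at least in some tissues or is the host of such a gene, all had NOD regions of both marks. Of all genes, 15.4% had a NOD H3K27ac and 24.8% a NOD H3K4me3 region. At Grb10, a growth inhibitor, 51 NOD and 7 B6 tags lay 0.109 kb past a TSS (fold 4.74, 2.14 to 12.4). Zrsr1, which sits in an intron of Commd1, had 88 NOD and 14 B6 tags (fold 4.09, 2.31 to 7.78) and a NOD H3K27ac region with a score of 55.0, and Commd1 shares both and also has 2 B6 H3K4me3 regions, with 17 and 16 B6 tags and 0 and 6 NOD tags. Ddc, the decarboxylase of dopamine and serotonin synthesis, had NOD H3K4me3 regions with 58 and 38 NOD tags against 7 and 4 in B6, whereas its H3K27ac regions had scores of 43.5 and 13.6 in B6 and 8.22 in NOD. Chromatin regulators had a region at 12 of 18 genes (66.7%, beside 49.3% of all genes), 8 of them with NOD H3K4me3 (44.4% of the group, beside 24.8%). The Polycomb member Cbx2 had the most tags, 99 in NOD and 16 in B6 (fold 4.02, 2.36 to 7.31). Of the myosin heavy chain group, 4 of 7 genes had a NOD H3K4me3 region (57.1%, beside 24.8% of all genes), all with 17 to 28 NOD tags and at most 2 B6 tags. The non-muscle Myh10 had 2 weak B6 H3K27ac regions.

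Immune genes varied by group, beside the 49.3% of all genes with a region. Of 11 CC chemokines, 2 had a region, Ccl11 with 19 NOD tags and no B6 tag 4.64 kb upstream and Ccl9 with a B6 H3K27ac score of 8.26. Of 8 cytokines, Il12b alone had a region, with 28 NOD and 2 B6 tags. Among immune GTPases and other interferon-induced genes, Irgm2 alone of 14 had a region, with 37 B6 and 6 NOD tags over its TSS (fold 9.48, 3.97 to 27.5). Among 18 further immune genes, 7 had a region (38.9%), 4 of them with B6 H3K4me3 (22.2% of the group, where all genes had 15.2%). NOD H3K4me3 lay at 3 (16.7% of the group, where all genes had 24.8%). The B6 genes included the lipoxygenase Alox12 and the inflammasome sensors Nlrp1b and Nlrp3, with 15, 21 and 31 B6 tags and 0, 0 and 8 NOD tags. In NOD, the macrophage protein Cd68 had 68 NOD and 11 B6 tags (fold 4.02, 2.11 to 8.43). Alox15 had 27 NOD tags and no B6 tag, and Itgae had NOD regions led by 33 NOD and 4 B6 tags.

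Of 83 microRNA hairpins of RefSeq on the chromosome, 13 had a region within 1 kb. Some of them share a region, and the share of all genes within the same distance was not counted, so this is a description. A B6 H3K27ac domain (chr11:70222207-70237638, score 33.4) covered Mir497 and Mir195a, which belong to the growth-restraining miR-15 family. It also covered Mir497b, whose hairpin spans that of Mir497. Beside the blood microRNA Mir142 and its antisense Mir142b lay 1 B6 H3K4me3 region with 34 and 6 tags. The most NOD tags, 138 against 16 in B6, were found at Mir7671.

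Short motifs of factors that act in ES cells were counted in the central 500 bp of each region, on both strands, as exact letters without regard to overlap with other motifs. None occurred in the 6 sequences printed above. The Esrrb motif TCAAGGTCA was present in 16 of 449 B6 H3K27ac regions (3.56%, 2.21 to 5.71) and 10 of 361 NOD ones (2.77%, 1.51 to 5.02), and in 1.33% of every 10th window of the chromosome. The STAT motif TTCCNGGAA was present in 13 B6 H3K27ac regions (2.90%, 1.70 to 4.89) and in 1 NOD region (0.277%, 0.0489 to 1.55), against 1.31% of windows. On the other 16 autosomes the same shares were 1.93% and 1.34%. The TCF motif ATCAAAGG was found in 9 B6 (2.00%) and 15 NOD (4.16%) H3K27ac regions and in 2.61% of windows, and the octamer ATTTGCAT in 12 of each list (2.67% and 3.32%) and in 3.66% of windows. These are matches of letters, not binding sites.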

How the data were processed

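ChIP-Seq reads (single-end, 50 bp per the labels) were aligned by the authors with bowtie2 against mm10, and HOMER v4.8 called the regions. The bowtie2 version is not given in the sources used here. The submitters' processing notes name mm9, CASAVA 1.8.2 and STAR 2.2.0c beside HOMER. The file headers name mm10, and of 798 chromosome 11 H3K27ac regions, 715 had the deposited TSS distance within 10 bp of GRCm38.p6, so mm10 was used. mm10 is the B6 genome, so NOD reads were mapped to the sequence of the other strain. The deposited H3K4me3 tag count per region is whole for B6. The deposited signal of the NOD list is scaled to the B6 library, from which whole tags were recovered (largest rounding 0.0769). Per the file headers, an H3K4me3 region had to exceed the other strain by 4-fold in tags, at a Poisson p-value limit of 0.0001. The deposited H3K27ac score has no stated scale, and the deposited slope value holds the region size in the highest-scoring rows. The deposited fold and p-value columns hold the comparisons of the authors and were not used.

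Members and gene lists were chosen with earlier results of these data known. Named regions were the 10 B6 and 6 NOD H3K27ac regions of chromosome 11 with the highest scores, the 8 regions of each H3K4me3 list with the most own-strain tags, the highest B6 H3K27ac region of each dense bin and the genes of the lists with a region. Other named regions were chosen after their values were seen. Some listed genes are not reported here. A region was placed by its centre in bins of 10 Mb, and a last bin under 5 Mb was joined to its neighbour. Counts had exact Poisson intervals, shares Wilson intervals and tag folds exact conditional binomial intervals, and a count of 0 was set to a floor of 3. Overlap meant at least 1 bp. With 1 library per strain and mark, no test was made. Genes, TSSs and sequence came from RefSeq (GRCm38.p6), except that H3K27ac shares near a TSS used the deposited distance unless RefSeq is named. Python 3.11.15, numpy 2.4.6, pandas 2.3.3, scipy 1.17.1 and matplotlib 3.10.9 were used, and functions were tested on simulated data. Alternatives were other denominators, minimum scores or tags, joining of neighbours within 12500 bp, other bins and other distances.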

Additional observations from a re-analysis of the deposited data

How the results depend on the processing

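Of 47 alternatives, 32 left the value within its counting interval (or a count of bins within 1.5 times) and 15 moved it. Per 100 protein-coding genes instead of per Mb, the ratio of chromosome 11 to the median of the other autosomes went from 1.75 to 1.07 for B6 H3K27ac, from 1.27 to 0.765 for NOD H3K27ac, from 1.32 to 0.755 for B6 H3K4me3 and from 1.29 to 0.722 for NOD H3K4me3. The NOD share of H3K27ac went from 44.6% to 51.7% for regions with a slope value of at least 1 and to 50.2% of the summed score, and that of H3K4me3 from 62.2% to 58.0% at a fold of 8 or more. The 7 dense bins became 4 at the 95th percentile and 4 at a score of 10 or more. Bins of 5 Mb gave 8 of 24 dense, counted above as within 1.5 times of 7, but their share went from 58.3% to 33.3% and the dense length from 72.1 to 42.1 Mb. The share of H3K27ac regions within 1 kb of a TSS went from 12.7% to 16.9% in B6 by RefSeq distance, and with a window of 5 kb to 21.6% in B6 and from 21.3% to 34.6% in NOD. The share of H3K4me3 regions over same-strain H3K27ac went from 4.34% to 2.65% in B6 and from 4.69% to 2.20% in NOD when at least 50% of the region had to be covered, and to 8.49% in NOD within 1 kb. Fewer regions qualify under the stricter settings, and the cause of the other shifts was not tested. No paired analysis was possible because each strain and mark had 1 library, and for the same reason no replicate could be left out. No tag total is known for H3K27ac, and the NOD H3K4me3 library was deeper by a factor of 1.54.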
